A study of Mus musculus with 18 samples.

Results

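The clustered protocadherins are 58 genes in 3 neighbouring clusters on mouse chromosome 18, and their DNA methylation was compared between WT and Dnmt3a R878H/+ spleen cells. A member was any region of the deposited methylation tables between 36.9 and 37.9 Mb of chromosome 18 (mm10) that overlapped a gene whose GENCODE symbol begins with Pcdha, Pcdhb or Pcdhg, or lay within 2 kb of one. Of the 411770 regions listed for CD11b+ cells, 99 members spanned more than 10 CpG cytosines, and 106 more spanned exactly 10. Of the 553467 listed for CD4+ cells, 104 members spanned more than 10 and 132 exactly 10. Counts, medians and the largest and smallest differences are over the larger regions unless stated. The tables count the cytosines of both strands, whereas the study set its size limit in CpGs, and 44 of the 99 and 29 of the 104 larger regions held more than 10 CpG dinucleotides of the mm10 sequence. No methylation value entered the choice among listed regions, but the authors' segmentation of methylation had set which regions were listed. The alpha cluster held 14 genes between positions 36930184 and 37187661, the beta cluster 22 genes between 37264938 and 37524479, and the gamma cluster 22 genes between 37661793 and 37841873, all on the forward strand.

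Whole-genome bisulfite sequencing (WGBS), which scores each cytosine as methylated or unmethylated, was done on splenic CD11b+ cells (myeloid cells carrying the integrin Itgam) and on splenic CD4+ T cells from 4 mice per genotype, all on a C57BL/6 background. Mutant mice carried 1 Dnmt3a fl-R878H allele, which Vav1-iCre recombined in hematopoietic cells, so their cells kept 1 WT copy of this de novo DNA methyltransferase. Controls, labelled WT in the sample titles and called Dnmt3a+/+ in the study, were either Cre-positive Dnmt3a+/+ mice or Cre-negative Dnmt3a fl-R878H/+ mice. Which kind was sequenced is not given in the sources used here. The Vav1-iCre transgene is named for its insertion at Commd10, which lies on the same chromosome (chr18:46958816-47234284), 9.12 Mb past the gamma cluster, so where controls lacked Cre the mutation and the chromosome segment linked to the transgene cannot be told apart.

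Each table gave 1 mean methylation level per genotype and region, in percent, as the authors' mean over 4 mice. Values of single mice and depth were not in the columns, so no error between mice and no interval could be computed. The q-values and p-values of the authors' own comparison, which the tables also hold, were not used, and the differences are given here as descriptions without a check against the spread between mice. Neither table names its groups. The first mean was read as WT because the study describes lower methylation in mutant cells, and the direction of each difference rests on that reading. A loss is the WT mean minus the R878H/+ mean, in percentage points, and a region is called lower where the loss was over 20 points, without the limit on the false discovery rate that the study also set. The tables listed only stretches that the authors' segmentation returned. CpGs inside member regions made up 13.2% (CD11b+) and 16.7% (CD4+) of the CpGs in and around the alpha genes, 20.8% and 21.6% around the beta genes, and 33.0% and 31.4% around the gamma genes.

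Clustered protocadherins are cell-surface adhesion proteins best known from neurons, in which each cell uses its own combination of them as an identity label. In the alpha and gamma clusters a row of large variable exons, each with its own promoter, is spliced to a shared set of constant exons, whereas each beta gene is a single exon. CTCF and cohesin join the unmethylated promoter of a chosen variable exon to distant enhancers, and CpG methylation at an unchosen promoter blocks CTCF. Dnmt3b is known to place much of this methylation in the early embryo. The last variable exons of each row (Pcdhac1, Pcdhac2, Pcdhgc3, Pcdhgc4 and Pcdhgc5, called C type) are regulated differently from the other, alternate, exons.

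Member regions were less methylated in WT cells than most listed regions. In CD11b+ cells their median was 72.8% in WT and 66.8% in R878H/+ cells, against 88.7% and 81.8% over all 172177 listed regions of that size. For CD4+ cells the medians were 75.1% and 69.4%, against 89.7% and 82.3% over all 247222. The median loss of the members was 6.15 points in CD11b+ cells and 6.38 points in CD4+ cells, close to the 6.60 and 6.85 points of the whole tables. Behind these medians the clusters went separate ways. The median difference in CD11b+ cells was a gain of 4.11 points in the alpha cluster, a loss of 3.42 points in the beta cluster and a loss of 7.52 points in the gamma cluster. In CD4+ cells it was a loss in each cluster, of 3.31, 4.15 and 7.80 points. The alpha and beta medians in CD11b+ cells depended on the size limit. Over all 46 listed alpha regions the median was a gain of 0.55 points, with 23 regions higher and 23 lower, and over the 11 beta regions with more than 10 CpG dinucleotides it was a gain of 6.37 points.

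**Figure D1:**
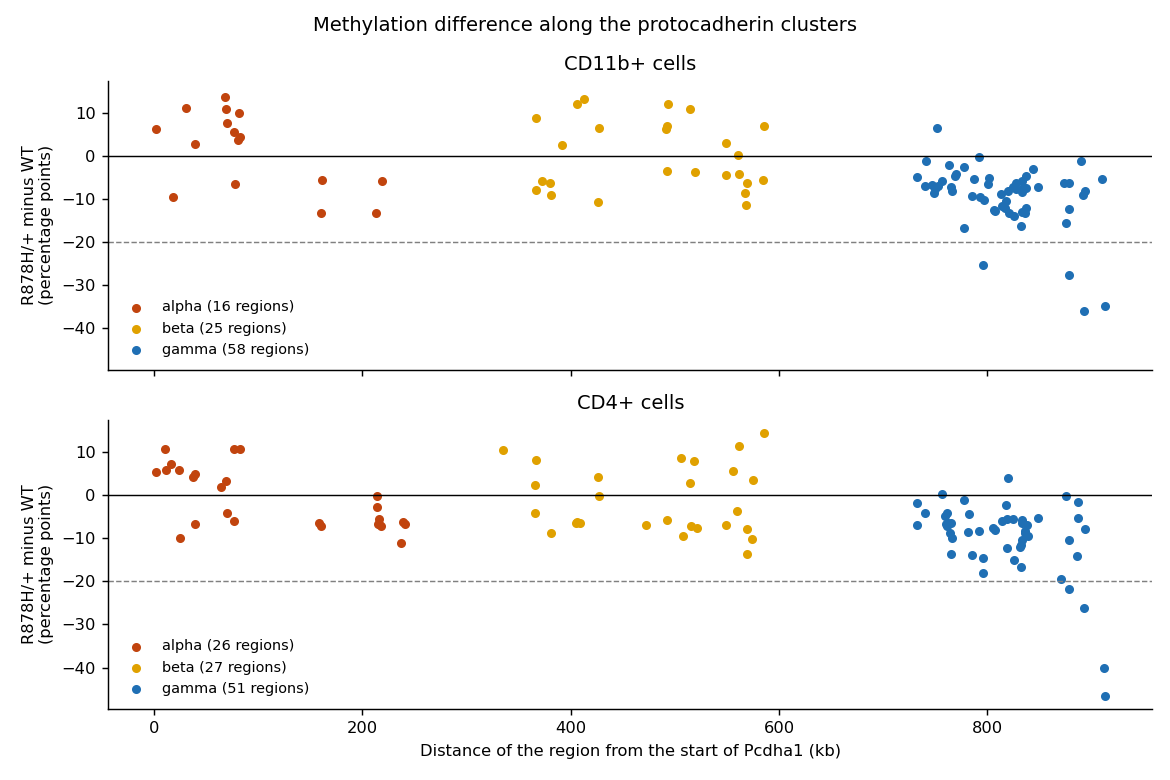
Each point is a member region with more than 10 CpG cytosines, placed by its distance from the start of Pcdha1 (x axis, kb) and by its R878H/+ mean minus its WT mean (y axis, percentage points), in CD11b+ cells (top) and CD4+ cells (bottom). The dashed line marks a loss of 20 points. Points above 0 lie mostly in the alpha and beta clusters, and the losses of over 20 points all lie in the gamma cluster.

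Few members were called lower. In CD11b+ cells 4 of 99 (4.04%) were, where 7.74% of all listed regions of that size were, and in CD4+ cells 4 of 104 (3.85%) were, where 6.89% of all were. Each of these 8 regions belonged to the gamma cluster. They made up 6.90% (CD11b+) and 7.84% (CD4+) of its regions, near the shares of the whole tables. A higher mean in R878H/+ cells was found at 23 of 99 members (23.2%) in CD11b+ cells, where 4.30% of all listed regions had one, and at 24 of 104 (23.1%) in CD4+ cells, where 2.75% had one. Gains of over 10 points were found at 8 members (8.08%) in CD11b+ cells against 0.678% of all regions, and at 6 members (5.77%) in CD4+ cells against 0.162%. The regions with gains lay near 17 genes in CD11b+ cells and near 21 in CD4+ cells.

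The share of regions with a higher R878H/+ mean differed from cluster to cluster. It was 10 of 16 in alpha, 12 of 25 in beta and 1 of 58 in gamma in CD11b+ cells. In CD4+ cells it was 11 of 26, 11 of 27 and 2 of 51. With the small regions of exactly 10 cytosines added, it was 23 of 46 in alpha, 39.6% in beta and 4.72% in gamma for CD11b+ cells, and 43.5%, 34.9% and 8.11% for CD4+ cells. Regions of the same chromosome window that were not near a clustered protocadherin had a higher mean at 0 of 12 in CD11b+ cells and at 1 of 20 in CD4+ cells, and the rest of chromosome 18 at 3.72% and 2.29%.

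**Figure D2:**
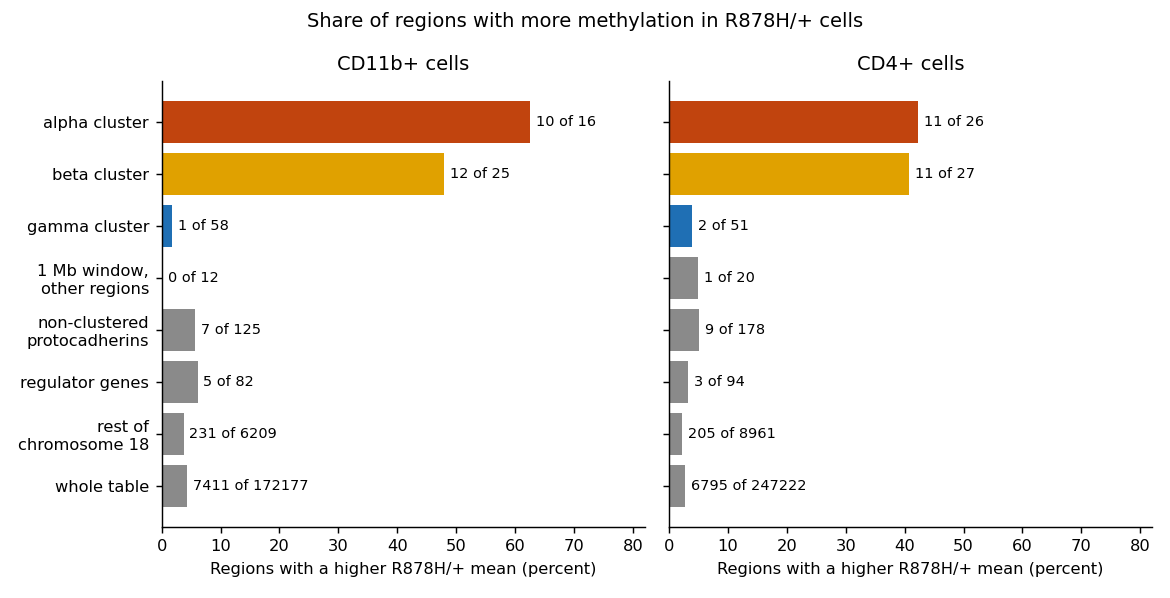
Bars give the percent of regions with more than 10 CpG cytosines whose R878H/+ mean was above the WT mean, for each cluster, for other regions of the same chromosome window, for 2 gene lists, for the rest of chromosome 18 and for the whole table, with the counts beside each bar. The alpha and beta bars stand at 62.5% and 48.0% (CD11b+) and at 42.3% and 40.7% (CD4+), and the gamma bars at 1.72% and 3.92%.

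Within the alpha cluster, regions nearest to alternate and to C-type exons differed. In CD11b+ cells 10 of the 12 regions nearest to an alternate exon had a higher R878H/+ mean, with a median gain of 6.04 points, whereas each of the 4 regions nearest to Pcdhac1 or Pcdhac2 had a lower one, with a median loss of 9.43 points. In CD4+ cells 11 of 15 regions nearest to an alternate exon were higher, with a median gain of 5.08 points, and 11 of 11 nearest to a C-type exon were lower, with a median loss of 6.60 points. Of these 11, 6 overlapped the C-type exon itself (6 of 6 lower, median loss 6.04 points), and the farthest lay 23979 bases past it. Over all listed regions 22 of 34 near alternate and 1 of 12 near C-type exons were higher in CD11b+ cells, and 25 of 41 and 2 of 21 in CD4+ cells. The split ran along the chromosome, since the alternate exons fill the upstream end of the cluster and the C-type exons its downstream end.

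Among the larger regions of CD11b+ cells, the top alpha gains lay at promoters. A region over the start of Pcdha9 (chr18:36997778-36998006, 11 cytosines) had means of 34.6% in WT and 48.5% in R878H/+ cells, a gain of 13.9 points. At the start of Pcdha5 (chr18:36960465-36960907, 14 cytosines) the means were 39.3% and 50.7%. Further into the exon of Pcdha9 (chr18:36999754-36999839, 12 cytosines) they were 68.9% and 79.8%. All 3 regions were partly methylated in WT cells, and in each the R878H/+ mean came closer to full methylation. Among the larger regions of CD4+ cells, the top alpha gains lay inside variable exons, over 1 kb past the start. At Pcdha2 (chr18:36940665-36940780, 12 cytosines) the means were 65.5% in WT and 76.3% in R878H/+ cells. At Pcdha10 (chr18:37006855-37007026, 12 cytosines) they were 61.6% and 72.5%. For Pcdha11 (chr18:37012291-37012606, 13 cytosines) they were 67.4% and 78.3%, and nearly the same stretch in CD11b+ cells (chr18:37012290-37012637) also had a higher R878H/+ mean, with 74.1% in WT and 78.5% in R878H/+ cells. Some small regions, looked at after the values were seen, had larger gains. In CD11b+ cells these were inside the exons of Pcdha1 (chr18:36931703-36931822, 70.4% in WT and 86.9% in R878H/+ cells) and Pcdha2 (chr18:36940453-36940600, 58.6% and 75.025%). In CD4+ cells the largest was at the start of Pcdha5 (chr18:36960828-36961010, 30.6% and 47.95%), followed by the Pcdha5 exon (chr18:36961703-36961734, 72.0% and 87.1%) and the Pcdha2 start (chr18:36939302-36939463, 47.9% and 62.65%). No order of promoters and exons thus held over all listed regions.

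Among the larger regions, the top alpha losses were close in size to the top alpha gains. The largest losses in CD11b+ cells were at the start of Pcdhac1 (chr18:37090301-37090607), with 55.7% in WT and 42.5% in R878H/+ cells, and just upstream of Pcdhac2 (chr18:37142795-37143334), with 27.9% and 14.8%. A small region at the Pcdhac1 start (chr18:37090666-37090773) had a larger loss, with 46.7% and 31.8%. A region of the Pcdha3 exon (chr18:36948294-36948645) had 73.7% and 64.2%, and the small regions before and after it in the exons of Pcdha3 and Pcdha4 had losses of 3.83 and 0.85 points. In CD4+ cells the largest alpha loss was in the intron after Pcdhac2 (chr18:37167418-37167865), with 76.9% and 65.8%, followed by the exon of Pcdha4 (chr18:36954955-36955326), with 75.2% and 65.3%, and a stretch past the Pcdhac2 exon (chr18:37147467-37147911), with 84.9% and 77.8%. Near the start of the Pcdhac2 exon, 1 larger region was almost unmethylated in CD4+ cells of both genotypes (chr18:37144306-37144413, 4.30% and 4.11%). Small regions before it were higher in R878H/+ cells, with 5.15% and 7.40% (chr18:37143530-37143614) and 9.90% and 17.5% (chr18:37144272-37144298). The 3 alpha constant exons overlapped no listed region in either cell type.

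The beta cluster was mixed from gene to gene. In CD11b+ cells the largest gains were at the Pcdhb7 exon (chr18:37343178-37343436, 66.4% in WT and 79.8% in R878H/+ cells), past the first annotated exon of Pcdhb6 (chr18:37335734-37335898, 72.2% and 84.5%) and at the Pcdhb11 exon (chr18:37423307-37423481, 49.7% and 62.0%). Among the larger regions its largest losses were of like size, at the Pcdhb19 exon (chr18:37498322-37498707, 83.3% and 72.1%), past the first annotated exon of Pcdhb8 (chr18:37356391-37356690, 86.6% and 76.1%) and at Pcdhb4 (chr18:37310948-37311876, 63.9% and 54.9%). Neighbouring stretches of 1 gene could point in opposite directions. Around Pcdhb8, the region of loss was followed directly downstream by a region with 62.3% in WT and 69.0% in R878H/+ cells (chr18:37356940-37357104).

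In CD4+ cells the largest beta gains were at the exons of Pcdhb21 (chr18:37515361-37515423, 52.2% and 66.7%) and Pcdhb18 (chr18:37491491-37491571, 61.0% and 72.5%) and at the start of Pcdhb1 (chr18:37265008-37265120). The last of these had the lowest WT level of the beta regions, 9.06%, and 19.7% in R878H/+ cells. The next small region at this start (chr18:37265181-37265224) was lower, with 21.2% and 16.2%. Over all listed regions within 1 kb of the Pcdhb1 start, weighted by cytosines, the means were 31.0% and 30.7%. The largest beta losses in CD4+ cells were at Pcdhb19 (chr18:37499105-37499186, 60.3% and 46.8%), the start of Pcdhb20 (chr18:37504499-37504789, 70.9% and 60.9%) and Pcdhb12 (chr18:37437635-37437743, 74.5% and 65.0%). Pcdhb19 thus held the largest beta loss among the larger regions of both cell types, at neighbouring and not at the same CpGs.

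Nearly all gamma regions lost methylation, as did nearly all listed regions. A lower R878H/+ mean was found at 57 of 58 regions in CD11b+ cells (98.3%) and at 49 of 51 in CD4+ cells (96.1%). Of all listed regions of that size, 95.7% and 97.3% had one. The exceptions among the larger regions were an exon stretch of Pcdhgb1 in CD11b+ cells (chr18:37682095-37682215, 81.9% in WT and 88.5% in R878H/+ cells), and stretches of the Pcdhga10 exon (chr18:37749420-37749507, 64.9% and 68.8%) and the Pcdhga4 exon (chr18:37686604-37687031, 81.2% and 81.5%) in CD4+ cells. Among the small regions, the largest gamma gain was at the Pcdhga9 exon in CD4+ cells (chr18:37738110-37738509, 73.1% and 83.65%). Regions within 1 kb of a gamma start had a median loss of 10.2 points in CD11b+ cells (22 of 22 lower) and 8.27 points in CD4+ cells (21 of 21 lower). Regions nearest to A-type exons (Pcdhga genes) and B-type exons (Pcdhgb genes) had like median losses, of 7.21 and 7.87 points in CD11b+ cells and 7.61 and 6.73 points in CD4+ cells. Those nearest to C-type gamma exons had 9.00 points in CD11b+ cells and 14.2 points in CD4+ cells, with 11 of 11 regions lower in each. This last group took in the last constant exon and the bases after it, and the regions that overlapped a C-type gamma exon had median losses of 9.00 points (5 of 5 lower) and 12.3 points (6 of 6 lower). Regions nearest to the alternate exons of alpha and gamma, which are built alike, had opposite median differences in both cell types, and those nearest to C-type exons had losses in both clusters.

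Among the larger regions of both tables, the only one called lower within 1 kb of a start was that of Pcdhga8 in CD11b+ cells (chr18:37725697-37725859, 14 cytosines), with 67.8% in WT and 42.6% in R878H/+ cells. In CD4+ cells an overlapping region (chr18:37725747-37725835) had 73.3% and 58.8%, a loss of 14.5 points. The smallest gamma losses were at the Pcdhgb4 exon in CD11b+ cells (chr18:37721720-37721891, 69.3% and 69.2%), near the start of Pcdhgc5 in CD11b+ cells (chr18:37819917-37820376, 93.9% and 92.9%) and upstream of Pcdhgc3 in CD4+ cells (chr18:37805940-37806063). The last was unmethylated in both genotypes, at 0.804% and 0.696%.

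Among the larger regions along the variable exon of Pcdhgc3 the loss grew with the WT level. In CD11b+ cells, 3 larger regions followed one another within this exon. The first (chr18:37808167-37808338) had 12.7% in WT and 6.63% in R878H/+ cells, the second (chr18:37808442-37808785) 39.2% and 27.0%, and the third (chr18:37808789-37808915) 75.7% and 48.1%. The losses were thus 6.08, 12.1 and 27.6 points. A loss cannot exceed the WT level, which limits it where that level is low. Small regions of this exon did not keep the order in CD11b+ cells. One (chr18:37807473-37807843) had 13.5% in WT and a loss of 9.15 points, and another (chr18:37808003-37808087) had 16.5% and a loss of 12.15 points. The larger regions of CD4+ cells had the same order, with 16.95% and 6.54% in the first region (chr18:37807901-37808407, 38 cytosines) and 66.5% and 44.8% in the second (chr18:37808662-37809101, 26 cytosines), losses of 10.4 and 21.7 points.

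The other called regions lay at the 3′ side of Pcdhgc5 and at the 3′ end of the gamma cluster, and both cell types shared them. The variable exon of Pcdhgc5 ended at 37822134. From 24 bases past that end, 37 cytosines in CD11b+ cells (chr18:37822158-37822748) had 75.1% in WT and 39.2% in R878H/+ cells, a loss of 35.9 points, and 41 cytosines in CD4+ cells (chr18:37822057-37822957), in a region that took in the last 78 bases of the exon, had 74.6% and 48.3%, a loss of 26.3 points. The last gamma constant exon, which encodes the shared end of the cytoplasmic domain and the 3′ untranslated region, ended at 37841873. A region of 51 cytosines that began in this exon and ran past the end of the gene (chr18:37841600-37843553) had 59.7% in WT and 25.04% in R878H/+ CD11b+ cells, a loss of 34.7 points. CD4+ cells had the same stretch listed as 2 regions. The first (chr18:37841600-37842068, 37 cytosines) had 70.3% and 30.1%, and the second (chr18:37842432-37843553, 26 cytosines) had 75.3% and 28.8%, losses of 40.2 and 46.5 points. The second lay outside the gene model, 559 bases past its end, between the 3′ ends of the gamma genes and of Diaph1, a formin gene on the reverse strand whose annotation ends at 37843601. It was 1 of 2 larger regions in CD4+ cells that were members only through the 2 kb limit. The other (chr18:37339004-37339155) had 90.1% and 83.7%, and the nearest region beyond the limit (chr18:37843980-37844774, 2107 bases away) had 94.0% and 90.1%. No larger region of CD11b+ cells lay between 0 and 5 kb outside the gene models.

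Of the regions listed in the last constant exon, those at its end had the large losses. Earlier stretches of the same exon had 92.3% in WT and 87.1% in R878H/+ CD11b+ cells (chr18:37839453-37840595) and 89.8% and 84.7% in CD4+ cells (chr18:37840051-37840279, 10 cytosines), losses of 5.16 and 5.08 points. Among the small regions, chosen after their values were seen, an intron stretch between gamma constant exons had 70.4% and 31.3% in CD11b+ cells (chr18:37835457-37836332). A stretch about 5 kb upstream of Pcdhgc3 had 39.9% and 12.4% in CD11b+ cells (chr18:37800883-37801048, 10 cytosines), and 33.7% and 14.2% in CD4+ cells (chr18:37800796-37801022, 16 cytosines).

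Members were also set beside all listed regions of the same WT level, a split chosen after the values were seen. Among regions at 40 to 60% in WT CD11b+ cells, the whole table had a median loss of 16.5 points. The gamma regions of this band had a median loss of 12.3 points (10 regions), whereas alpha and beta regions had median gains of 6.68 points (4 regions) and 6.96 points (5 regions). In CD4+ cells the band had a median loss of 15.4 points in the whole table and of 8.06 points in gamma (7 regions), with gains of 4.38 points in alpha (3 regions) and 8.67 points in beta (3 regions). At 60 to 80% in WT, which held more members, the alpha and beta medians were of both signs. The CD11b+ medians of this band were losses of 12.9 points in the table, 9.80 points in gamma (20 regions) and 0.48 points in alpha (6 regions), and a gain of 1.71 points in beta (12 regions). In CD4+ cells they were losses of 12.7 points in the table, 8.83 points in gamma (19 regions) and 6.81 points in beta (15 regions), and a gain of 5.33 points in alpha (12 regions). Above 80% the clusters and the tables came together. In CD11b+ cells the table lost 5.71 points in that band, beta 5.85 points and gamma 5.48 points, with alpha at 1.41 points over only 2 regions. In CD4+ cells the losses were 6.12 points in the table, 6.28 points in alpha, 5.21 points in beta and 5.98 points in gamma. Of the 3 bands, the gap between the table's median and that of each cluster was widest at 40 to 60%.

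**Figure D3:**
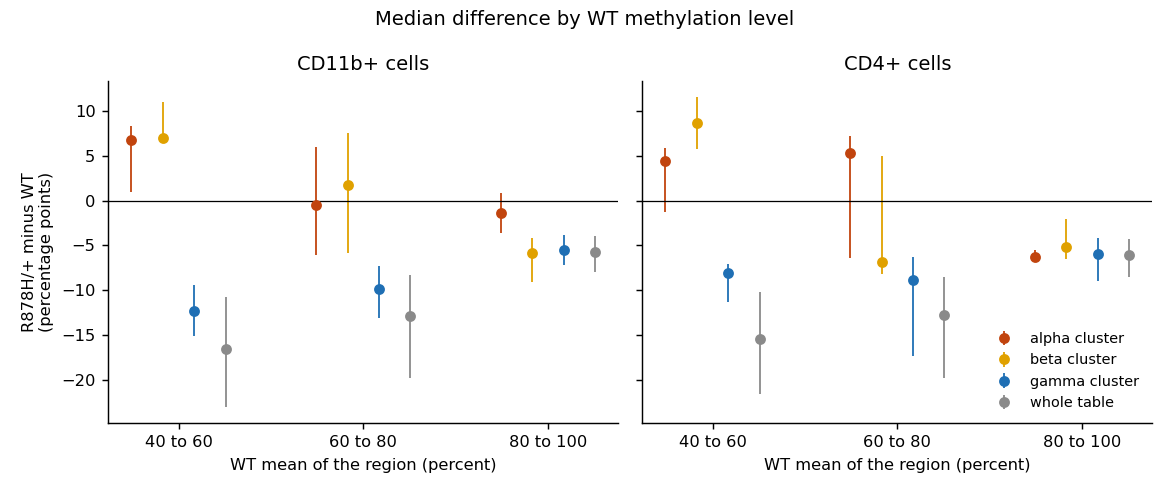
Points give the median R878H/+ mean minus WT mean (y axis, percentage points) of regions grouped by their WT mean (x axis, percent), for each cluster and the whole table, and bars span the quartiles over regions, which are not replicates. At 40 to 60% in WT the alpha and beta points lie above 0 and the table's lie at losses of 16.5 points (CD11b+) and 15.4 points (CD4+), while at 80 to 100% all but alpha in CD11b+ cells lie close together.

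Each variable exon has its own promoter, so methylation was also read per gene, as the mean over listed regions within 1 kb of its start, weighted by cytosines and with the small regions included. A value was had for 34 of 58 genes in CD11b+ cells and for 42 in CD4+ cells. Some values came from a single region of 10 cytosines. Among these were Pcdha12 and Pcdhga3 in CD11b+ cells, Pcdha2, Pcdha10 and Pcdhgc5 in CD4+ cells, and Pcdhgc4 in both. All 5 alternate alpha genes with a value in CD11b+ cells were higher in R878H/+ cells. Their WT and R878H/+ levels were 39.3% and 50.7% at Pcdha5, 38.7% and 45.4% at Pcdha6, 41.5% and 50.3% at Pcdha9, 39.0% and 45.9% at Pcdha11, and 47.7% and 54.9% at Pcdha12. WT levels thus ran from 38.7 to 47.7% and R878H/+ levels from 45.4 to 54.9%, and the ranges overlapped. In CD4+ cells 5 of 8 alternate alpha starts were higher. Pcdha2 had the largest gain, from 47.9% in WT to 62.7% in R878H/+ cells, followed by Pcdha5 with 48.5% and 58.0%. Pcdha12 had 37.9% and 46.3%, Pcdha10 43.6% and 50.8%, and Pcdha3 41.2% and 48.5%. Pcdha8 had the largest alpha start loss in CD4+ cells, with 69.9% and 63.1%, and Pcdha4 (64.6% and 61.8%) and Pcdha6 (56.8% and 56.4%) were the others that were lower.

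**Figure D4:**
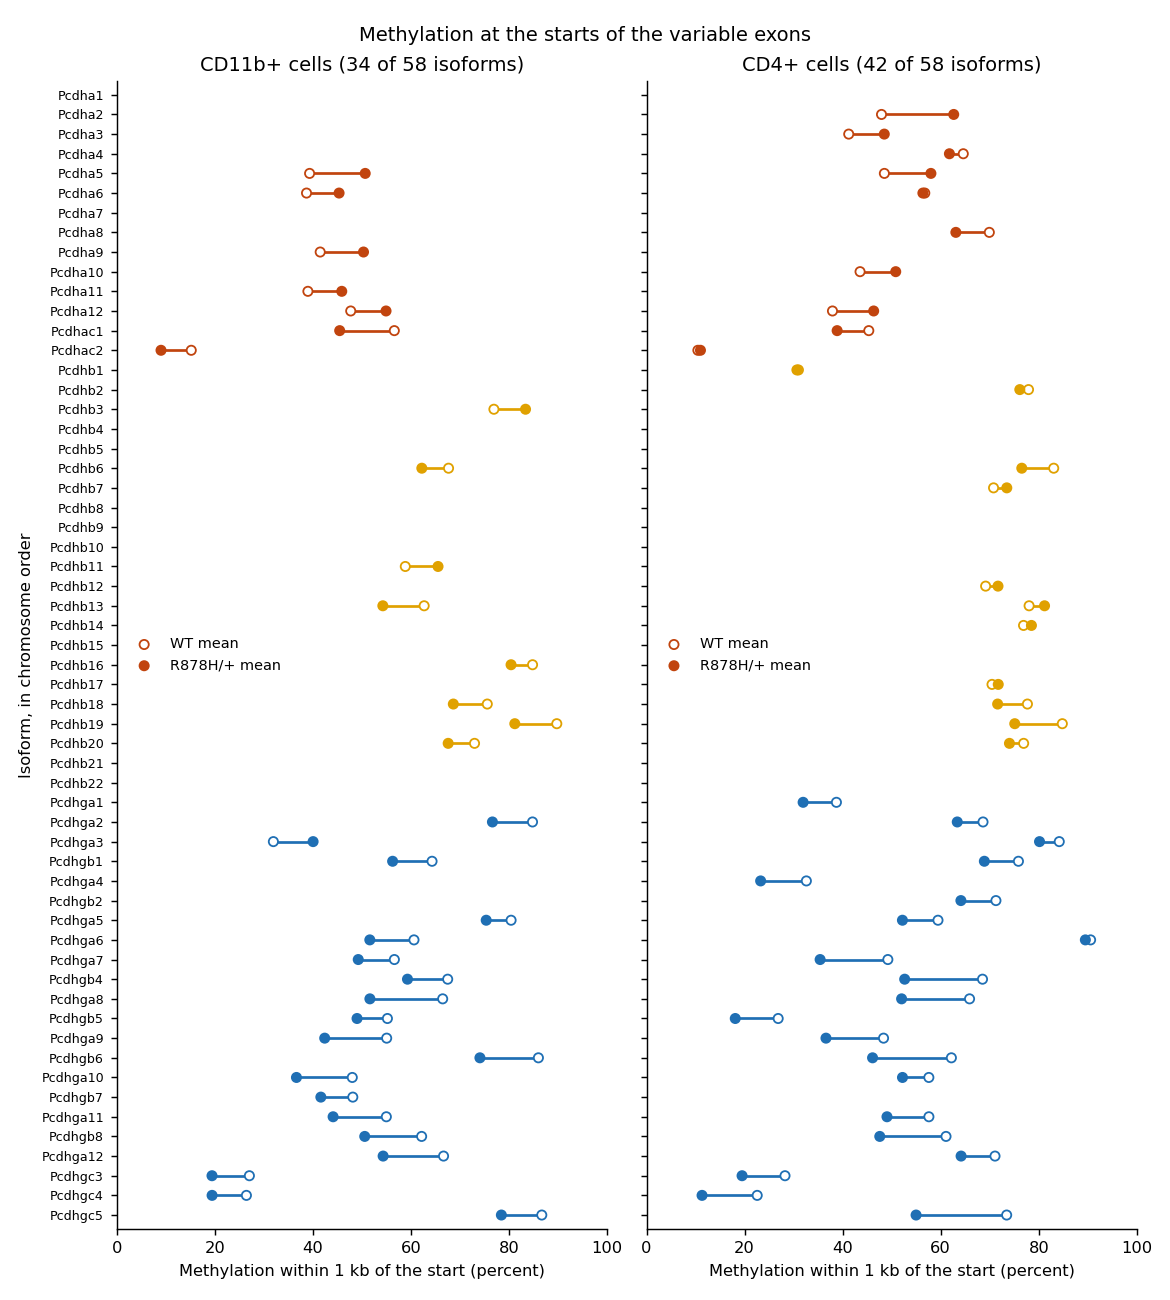
Open circles give the WT mean and filled circles the R878H/+ mean of methylation within 1 kb of each gene's start (x axis, percent), for the genes in chromosome order (y axis), in CD11b+ cells (left, 34 genes with a value) and CD4+ cells (right, 42 genes). Alternate alpha genes mostly have the filled circle to the right, and gamma genes have it to the left except for Pcdhga3 in CD11b+ cells.

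Gamma starts went the other way. In CD11b+ cells 18 of 19 were lower and in CD4+ cells 21 of 21, with median losses of 8.20 and 8.75 points. These are means over regions, and some small regions behind a lower gamma value were higher. In CD11b+ cells these included regions of Pcdhgb7 (chr18:37751503-37751662, 10.5% and 17.6%) and Pcdhgc3 (chr18:37807239-37807422, 0.675% and 5.625%). A CD4+ region of Pcdhga5 (chr18:37694686-37694902) had 34.2% and 35.4%. Pcdhga8 had the largest start loss in CD11b+ cells, 14.8 points (66.5% and 51.6%), and a loss of 13.9 points in CD4+ cells (65.9% and 52.0%). Pcdhgc5 had the largest in CD4+ cells, 18.5 points (73.5% and 55.0%), and 8.24 points in CD11b+ cells (86.7% and 78.5%). These Pcdhgc5 values came from different stretches. The CD4+ value was that of a single region (chr18:37818750-37819360). A small CD11b+ region that overlapped its end (chr18:37819335-37819815) had 75.9% and 56.7%, a loss of 19.15 points. The CD11b+ value also took in a region farther downstream (chr18:37819917-37820376), with 93.9% and 92.9%. The exception in CD11b+ cells was Pcdhga3, with 32.0% and 40.1% from a single region of 10 cytosines, while in CD4+ cells Pcdhga3 had 84.2% and 80.2%. Beta starts were more methylated than the others in WT cells, at medians of 74.3% (CD11b+) and 76.9% (CD4+), and had lower R878H/+ levels at 6 of 8 genes in CD11b+ cells and at 6 of 11 in CD4+ cells, where the median loss was 0.31 points.

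Pcdhac2, Pcdhgc4 and Pcdhgc3 had the lowest WT start levels in CD11b+ cells, and Pcdhac2 and Pcdhgc4 in CD4+ cells. In CD11b+ cells Pcdhac2 had 15.2% in WT and 9.04% in R878H/+ cells, whereas CD4+ cells had 10.5% and 11.0%. The CD11b+ value took in a region upstream of the start (chr18:37142795-37143334, 27.9% and 14.8%) and one past it (chr18:37143606-37143747, 1.275% and 2.675%). In CD4+ cells the upstream region (chr18:37142836-37143333) was also lower, with 26.3% and 19.15%. For Pcdhgc3 the CD11b+ levels were 27.1% and 19.4%, and the CD4+ levels 28.2% and 19.5%. At Pcdhgc4 CD11b+ cells had 26.5% and 19.5%, and CD4+ cells had 22.6% and 11.3%. The regions behind the Pcdhgc4 values were centred 977 bases (CD11b+) and 824 bases (CD4+) past the start. Pcdhac1 was in between, with 56.6% and 45.5% (CD11b+) and 45.3% and 38.9% (CD4+). Pcdhgc5 had the highest WT level of the C-type starts in both cell types. Over the 28 genes with a value in both cell types, 22 had a lower R878H/+ level in both, 2 (Pcdha5 and Pcdha12) a higher level in both, and 4 differed in direction. The listed regions behind a gene's value often differed between the cell types, and their part in the direction was not tested.

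The cell types were compared directly at the regions listed in both tables that overlapped by at least 50% of each. There were 21 such pairs, 2 in alpha, 4 in beta and 15 in gamma, since the tables were segmented separately. The CD4+ minus CD11b+ difference of the WT levels had a median of 0.40 points and ran from -23.5 points, past the Pcdhgc5 exon, to 28.3 points, at Pcdha9. The regions of a pair share only part of their bases. Past the Pcdhgc5 exon the CD4+ region (chr18:37823499-37823970) was the first part of the CD11b+ region (chr18:37823499-37824287). The next CD4+ region (chr18:37823971-37824251, 10 cytosines) had 77.5% in WT. Loss was present in both cell types at 15 of 15 gamma pairs, at 2 of 4 beta pairs and at neither alpha pair. Of all listed regions with more than 10 cytosines, 95.7% (CD11b+) and 97.3% (CD4+) were lower. The Pcdha11 pair was higher in R878H/+ cells of both types. The Pcdha9 pair (chr18:36999946-37000108 and chr18:36999903-37000028) was higher in CD11b+ cells, with 54.5% and 62.2%, and lower in CD4+ cells, with 82.8% and 78.8%. Its CD4+ region also overlapped a small CD11b+ region that was lower (chr18:36999850-36999931, 64.8% and 59.6%). The Pcdhb2 pair (chr18:37296855-37297204 and chr18:37296946-37297422) had near-equal WT levels of 73.0% and 72.8% but opposite differences, a loss to 65.1% in CD11b+ cells and a gain to 81.0% in CD4+ cells. Its CD4+ region ran on into a small CD11b+ region that was higher (chr18:37297205-37297661, 82.65% and 86.45%). The part of region boundaries in these differences was not tested. Over the 15 gamma pairs the losses of the cell types had a Pearson correlation of 0.87, a description over regions of the same locus, with spleens of the same genotypes behind them. Their median losses were 8.02 points in CD11b+ cells and 8.27 points in CD4+ cells.

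**Figure D5:**
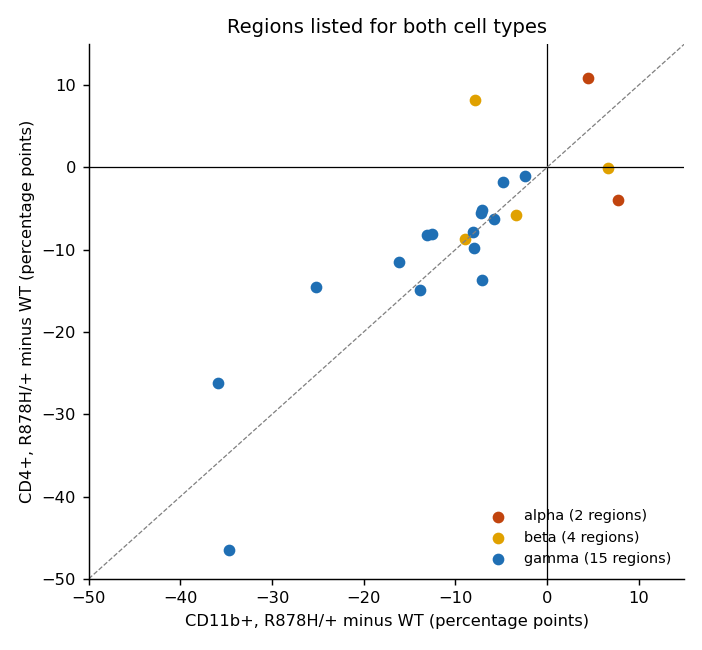
Each point is a region listed in both tables with at least 50% overlap, with the R878H/+ mean minus the WT mean in CD11b+ cells (x axis) and CD4+ cells (y axis), in percentage points. The dashed line marks equal differences, and the 15 gamma points lie below 0 on both axes while alpha and beta points fall on both sides.

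CpG density, counted on the mm10 sequence of each region, was the sequence feature read for the members. It takes in all CpGs of a stretch, and not only the cytosines behind its means. Alpha regions with a higher R878H/+ mean were denser in CpGs than alpha regions with a lower one, at medians of 6.02 and 2.68 CpGs per 100 bases (CD11b+) and 5.20 and 1.96 (CD4+). In the beta cluster the values were 4.25 and 3.00 (CD11b+) and 2.31 and 2.60 (CD4+), so the order turned between the cell types. The gamma regions, nearly all lower, had medians of 3.10 and 4.07 CpGs per 100 bases. Some alpha gain regions had means from fewer cytosines than their CpGs, such as the Pcdha5 start in CD11b+ cells (14 cytosines, 32 CpGs). Others had more cytosines than CpGs, such as the Pcdha6 exon in CD11b+ cells (11 and 7). So had 88.8% (CD11b+) and 93.9% (CD4+) of the regions listed on chromosome 18. The part of uncounted cytosines in the density difference was not tested.

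Protocadherin genes outside the clusters, which make adhesion proteins of the same family without such a shared locus, had shares of gains nearer to those of the whole tables. Regions near the 12 genes of this list (none were listed near Pcdh20) had a higher R878H/+ mean at 7 of 125 (5.60%) in CD11b+ cells and at 9 of 178 (5.06%) in CD4+ cells, with median losses of 6.04 and 5.72 points. Pcdh19, an X-linked member, had the largest median loss of the list, 18.9 points in CD11b+ cells (6 regions) and 16.0 points in CD4+ cells (8 regions). Its WT medians were 56.6% and 54.5%, and all listed regions at 40 to 60% in WT had median losses of 16.5 and 15.4 points. The sex of the sequenced mice is not given in the sources used here. Pcdh10 was the one member of the list with a higher R878H/+ median of differences in both cell types, by 2.30 points over 5 regions and 1.84 points over 4. The list of genes that act on clustered protocadherin promoters (Ctcf, cohesin subunits and loaders, Smchd1, Setdb1 and the DNA methyltransferases) had a higher mean at 5 of 82 regions in CD11b+ cells and 3 of 94 in CD4+ cells. Among them Dnmt3b had median losses of 10.6 points (5 regions) and 8.56 points (10 regions), and Ctcf of 3.14 points (7 regions) and 6.41 points (2 regions).

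Several features of the data move with these results, and their part in them was not tested. Variable exons resemble one another in sequence, and how reads with several matches were handled is not given in the sources used here. Sample-sheet numbers in the titles fall in 2 ranges, and the 4 R878H/+ CD4+ entries lie in the upper one while 3 of 4 WT CD4+ entries lie in the lower one, so in CD4+ cells range and genotype cannot be told apart. The 4 WT CD11b+ entries and 4 of the 6 R878H/+ CD11b+ entries lie in the lower range, and the other 2 repeat mice of the same group. The cell labels could be checked only in part. Myeloid starts in WT CD4+ cells were methylated at 81.9 to 92.2% (3 of 6 genes with a region), and in WT CD11b+ cells the starts of Cebpa and Spi1, both myeloid transcription factor genes, had 2.02% and 38.5%, whereas Itgam had 79.4%. The T cell gene Cd3e had 27.4% in WT CD4+ cells, and Cd4 and Lck had 66.4% and 65.0% in WT CD11b+ cells. The T cell genes Bcl11b and Cd28 did not follow the labels, with 3.08% and 83.3% in WT CD11b+ cells and 3.92% and 86.8% in WT CD4+ cells. Nor did Itgam, the gene of the sorting marker CD11b, with 79.4% in WT CD11b+ and 81.9% in WT CD4+ cells.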

How the data were processed

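Methylation tables of splenic CD11b+ and CD4+ cells were analysed, each with 4 mice of either genotype. The authors mapped WGBS reads to mm10 with BISCUIT and segmented CpG methylation with metilene (versions, segmentation settings and coverage minimum are not given in the sources used here; the study kept regions by size, difference and false discovery rate, and the last was not applied here). The deposited tables hold mean methylation per genotype in percent, a cytosine count, and q-values, differences and p-values of the authors' comparison, which were not used. They held 0 columns of per-sample values. R878H/+ means of 10-cytosine regions in CD11b+ cells, times 40, lay within 0.024 of a whole number in 100% of cases, as means over 4 values in whole percent would. How the 6 CD11b+ entries gave 4 values is not given in the sources used here. Table starts count from 0 and are printed from 1. Both strands of a CpG count as cytosines.

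Genes came from GENCODE M21, with the RefSeq name for a gene ID that GENCODE also calls Pcdha11. Counts and medians were computed with pandas 2.3.3 in Python 3.11.15, after the code was checked on a simulated table. Regions named were, per cluster and cell type, the 3 with the largest loss and the 3 with the largest gain or smallest loss, starts of C-type exons, constant exons and called regions. Members and lists were chosen with earlier results of these data known. Alternatives were other distances, size limits, thresholds, weights and start windows.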

Additional observations from a re-analysis of the deposited data

How the results depend on the processing

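No paired analysis was possible because the tables hold only group means, and for the same reason no mouse could be left out. Of the 66 alternative values, 49 kept their direction and lay both within 1.5 times the reported value and, for medians, inside its interval over regions. With all listed regions the CD11b+ alpha gain of 4.11 points became 0.55 points. The median CD4+ minus CD11b+ difference in loss over shared regions went from -1.38 to -0.21 points with any overlap. The number of members called lower by over 20 points, 4 in each cell type, became 7 in CD11b+ cells with all listed regions and 2 with more than 20 cytosines, 2 in CD4+ cells within 2 kb of a variable exon only, 23 and 20 with a threshold of 10 points and 2 in each with 30 points. Limited to more than 20 cytosines, the loss was 6.25 points in the beta cluster of CD11b+ cells (1 region) and the median loss 9.56 points in the gamma cluster of CD11b+ cells, 9.39 points over the CD4+ members and 16.1 points in the CD4+ gamma cluster, with 6.51 points in the CD4+ beta cluster (1 region). In the CD4+ alpha cluster it turned from a loss of 3.31 points to -0.49 points, a gain, with 2 regions left. Limited to more than 10 CpG dinucleotides, the CD11b+ beta median turned from a loss of 3.42 points to -6.37 points, a gain, over 11 regions, and the CD4+ gamma loss was 9.90 points. Alpha medians are over few regions of both signs, and the cause of the other shifts was not tested. All listed regions for each cluster, the limit in dinucleotides, the regions overlapping an exon and the split by WT level were added after the data were seen.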
